A study of Mus musculus with 12 samples.

Results

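The epoxide hydrolases of RAW264.7, a line of mouse macrophage-like cells, were followed through the probe sets whose platform symbol was Ephx1, Ephx2, Ephx3 or Ephx4. All 4 genes were found among 30464 named on the array, each with 1 probe set, so taking the probe set with the highest mean decided nothing. The family was chosen from values of these arrays, taken here to be its log2 signals in conditioned against normal medium, where Ephx1 stood out. Cells had spent 24 h in 1 of 4 media, with 3 arrays for each. One medium came from PyMT-41C cells labelled SCR (SCR medium, replicates 1, 3 and 4), one from PyMT-41C cells with a JMJD6 knockout (KO medium, replicates 1, 2 and 3), one was SCR medium to which CSH had been added, given in the labels as ANXA-1 receptor blockade (replicates 1, 2 and 4), and one was normal medium (replicates 2, 3 and 4). Per the growth protocol, conditioned medium was mixed in equal parts with normal RPMI holding 10% FBS. The knockout was in the cells that made the medium, and the measured line was the same in every group. The labels name neither CSH in normal medium nor a vehicle, and do not say how many knockout clones were used. Nothing states that replicates came from separate cultures, so the spread behind each p-value may be technical.

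Epoxides are strained oxygen rings that react readily with proteins and DNA, and epoxide hydrolases open them by adding water, which gives a diol. Ephx1 encodes microsomal epoxide hydrolase, an enzyme of the endoplasmic reticulum best known in liver for clearing epoxides that cytochromes P450 make from foreign compounds. Ephx2 encodes soluble epoxide hydrolase, which hydrolyses the epoxides of arachidonic acid and other fatty acids and so ends their signalling in vessels and inflammation. Ephx3 encodes a further family member with activity on fatty acid epoxides, and Ephx4 was placed in the family by sequence. The family belongs to the alpha/beta-hydrolase fold, as do the Abhd genes.

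In GRCm38.p6, the assembly of mm10, Ephx1 lies on chromosome 1 from 180989556 to 181017569, Ephx2 on chromosome 14 from 66084372 to 66124522, Ephx3 on chromosome 17 from 32183770 to 32189470 and Ephx4 on chromosome 5 from 107403513 to 107430035. The group means differed most for Ephx1 among the 4 members, so the 250 bases before its RefSeq start are shown. They run along the minus strand at chr1:181017570-181017819 (RefSeq, GRCm38.p6), and the capitals mark a match to CCAAT, the box bound by NF-Y.
Ephx1 upstream: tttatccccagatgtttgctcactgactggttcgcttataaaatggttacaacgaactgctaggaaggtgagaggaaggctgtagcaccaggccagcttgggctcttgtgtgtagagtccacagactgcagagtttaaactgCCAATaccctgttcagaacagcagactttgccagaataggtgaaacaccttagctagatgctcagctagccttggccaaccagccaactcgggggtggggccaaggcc
The human EPHX1 promoter is known to respond to C/EBP alpha through NF-Y, and Ephx1 is also known as a target of NRF2, so the motifs searched on both strands were CCAAT, TGACNNNGC (the core of the antioxidant response element) and GCGTG (the core bound by the aryl hydrocarbon receptor). CCAAT occurred 1 time in the Ephx1 window, with its last base 104 bases before the start, and 33.8% of 32851 mouse promoter windows of the same length held it. TGACNNNGC and GCGTG each had 0 matches in the window, and occurred in 10.2% and 28.2% of all windows. A match or its absence is only a statement about these letters.

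Ephx1 was the member whose signal changed with the medium. In SCR medium its log2 signals were 9.43, 9.43 and 9.56, in KO medium 9.11, 9.21 and 8.89, in SCR medium with CSH 9.80, 9.76 and 9.59, and in normal medium 13.22, 12.96 and 12.84. All 9 arrays of conditioned medium were far below the 3 arrays of normal medium, and in conditioned medium too every array stayed above its own median of all probe sets, by 3.44 or more. The means were 9.47 ± 0.08 in SCR medium, 9.07 ± 0.16 in KO medium, 9.72 ± 0.11 in SCR medium with CSH and 13.01 ± 0.19 in normal medium (SD, n = 3 each).

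These levels against normal medium are taken to be what drew attention to the family, so they are given as a description with no test. The log2 difference from normal medium was -3.53 (SE 0.11, 11.6-fold lower) in SCR medium, -3.94 (SE 0.11, 15.3-fold lower) in KO medium and -3.29 (SE 0.11, 9.78-fold lower) in SCR medium with CSH. The gene ranked number 2 from the largest fall among 18119 tested genes in each of the 3 comparisons, which share the arrays of normal medium. The groups of a comparison failed to overlap in this downward direction for 19.7% of tested genes in SCR medium, 23.0% in KO medium and 19.4% with CSH, and limma called 15.8%, 17.6% and 14.9% of them lower. With bulk RNA from whole cultures, fewer cells with the transcript and less transcript per cell cannot be told apart.

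**Figure D1:**
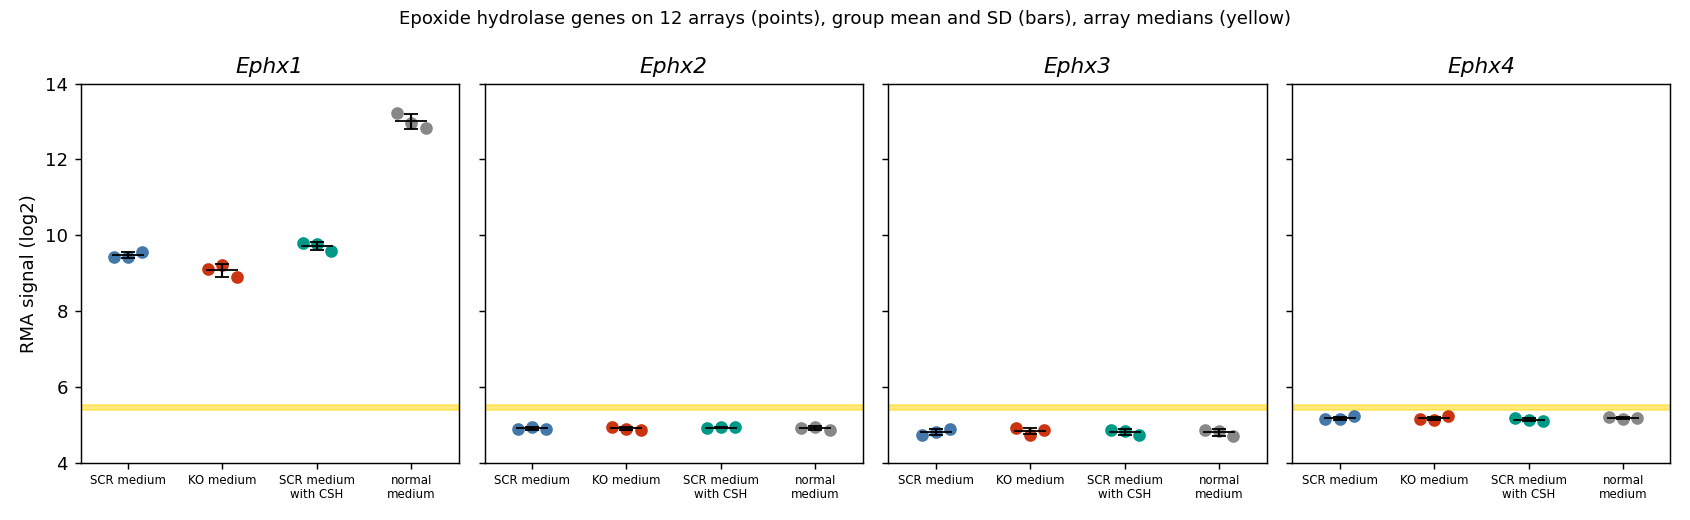
RMA signal (log2) of Ephx1, Ephx2, Ephx3 and Ephx4 on each of the 12 arrays (points, coloured by medium), with group mean and SD (bars, n = 3) and the span of the array medians from 5.40 to 5.52 (yellow band). Ephx1 stands at 8.89 to 9.80 in the conditioned media against 12.84 to 13.22 in normal medium, while the other members lie below the band in every medium.

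The fatty acid epoxide hydrolase gene Ephx2 showed no such difference. Its signals were 4.88, 4.95 and 4.90 in SCR medium, 4.95, 4.90 and 4.87 in KO medium, 4.92, 4.93 and 4.93 in SCR medium with CSH, and 4.91, 4.95 and 4.85 in normal medium. Each of its 12 values was below the median of its array, and the group ranges overlapped in all 6 pairings. Ephx3 read 4.73, 4.80 and 4.90 in SCR medium, 4.91, 4.74 and 4.86 in KO medium, 4.86, 4.83 and 4.72 in SCR medium with CSH, and 4.85, 4.84 and 4.70 in normal medium. Ephx4 read 5.14, 5.16 and 5.22 in SCR medium, 5.16, 5.12 and 5.22 in KO medium, 5.17, 5.13 and 5.11 in SCR medium with CSH, and 5.21, 5.15 and 5.17 in normal medium. Both lay below the array median on all 12 arrays, again with overlapping groups in every pairing.

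The group means spanned 0.02 for Ephx2, 0.04 for Ephx3 and 0.04 for Ephx4 on the log2 scale, against 3.94 for Ephx1. With signals below the array median on all 12 arrays, Ephx2, Ephx3 and Ephx4 missed the filter on low values and were not tested. That filter asked for a signal above the array median on at least 3 arrays. Ephx1 was the 1 member tested. A probe set this dim cannot separate a low transcript level from background, and a change confined to that range may be compressed by RMA. The level of 1 gene's probe set was not set against another's, since probes differ in their response.

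Between the conditioned media, Ephx1 was lowest in KO medium and highest with CSH. KO medium and SCR medium with CSH were separate, at 9.07 ± 0.16 and 9.72 ± 0.11 (SD, n = 3 each), a log2 difference of -0.65 (SE 0.11, 95% confidence interval -0.87 to -0.42, limma adjusted p = 0.00959). All 3 arrays of KO medium lay below all 3 with CSH, as for 12.1% of tested genes, and 0.695% of tested genes were called lower. The difference ranked number 21 from the largest fall and amounted to 1.57-fold. Earlier results of these data were known when the family was chosen, so the p-value of this comparison may carry that choice. This comparison differs in both the source of the medium and CSH, so the contribution of each cannot be told apart from it.

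Neither conditioned medium was shown to differ from SCR medium itself. Ephx1 in KO medium stood at -0.40 relative to SCR medium (SE 0.11, 95% confidence interval -0.63 to -0.18, limma adjusted p = 0.261). Its KO arrays, at 8.89 to 9.21, all lay below its SCR arrays, at 9.43 to 9.56, as happened for 4.37% of tested genes, and 0.0166% of tested genes were called lower. With CSH the difference from SCR medium was 0.24 (SE 0.11, 95% confidence interval 0.02 to 0.47, limma adjusted p = 0.783). The CSH arrays, at 9.59 to 9.80, were separated from the SCR arrays by a gap of only 0.03, and 5.51% of tested genes did not overlap in that direction, while limma called 0 genes in this comparison (1131 had an unadjusted p below 0.05). The comparisons share the SCR arrays. The order KO medium, SCR medium, SCR medium with CSH, from low to high with no overlap, was looked for after the values had been seen and was found in 72 genes, 0.397% of those tested; 88 genes, 0.486%, had the reverse order of these 3 media, and 41, 0.226%, also had normal medium above all of them, as Ephx1 did.

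**Figure D2:**
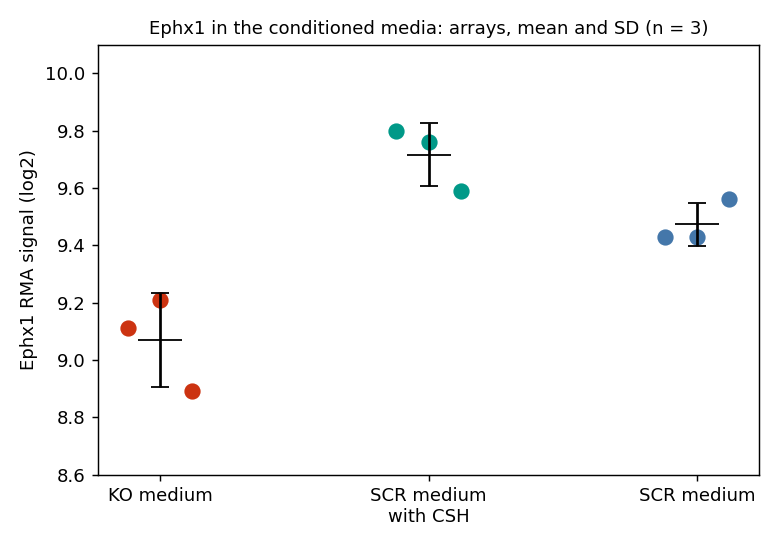
Ephx1 RMA signal (log2) on the 9 arrays of conditioned medium, with group mean and SD (bars, n = 3); the axis begins at 8.6. Points for KO medium reach from 8.89 to 9.21, those for SCR medium with CSH from 9.59 to 9.80 and those for SCR medium from 9.43 to 9.56, with no overlap.

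The genes whose profile was most like that of Ephx1 were taken by Pearson's r over the 12 arrays, as a description. Highest were Cd72, an inhibitory receptor known from B cells (r = 0.997), Hacd4, a gene of fatty acid elongation (0.996), Atp2a3, a calcium pump of the endoplasmic reticulum (0.996), Samhd1, a dNTP hydrolase (0.996), and Rin2, a regulator of RAB5 (0.995). Cd72 read 8.90, 8.89 and 8.93 in SCR medium, 8.34, 8.59 and 8.44 in KO medium, 9.0, 9.29 and 8.97 in SCR medium with CSH, and 12.02, 11.86 and 11.88 in normal medium. It showed the same steep drop in conditioned medium and, like Ephx1, its lowest values in KO medium. All KO arrays lay below all SCR arrays for 4.37% of tested genes, and the means of the other 4 genes were also lowest in KO medium. Over the 9 conditioned arrays alone the r of Cd72 to Ephx1 was 0.919, and that of the other 4 ran from 0.842 to 0.911. Their differences between SCR medium and normal medium were -3.01 for Cd72, -2.14 for Hacd4, -2.06 for Atp2a3, -0.93 for Samhd1 and -1.19 for Rin2, so r marks the shape of a profile and not its size.

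The most opposite profiles belonged to Cd53, a tetraspanin gene (r = -0.996), Eif1-ps1 (-0.994), Bcl2a1d, of the BCL2 family (-0.993), C1galt1, a galactosyltransferase of O-glycans (-0.992), and Slc25a37, the mitochondrial iron importer mitoferrin (-0.992). Eif1-ps1 is annotated as a pseudogene and Bcl2a1d has near-identical copies, so their probe sets may read other transcripts. An r above 0.95 in size to Ephx1 was reached by 1326 of 18118 other tested genes, or 7.32%, since the points fall into normal and conditioned medium. A close r is thus common on these arrays.

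**Figure D3:**
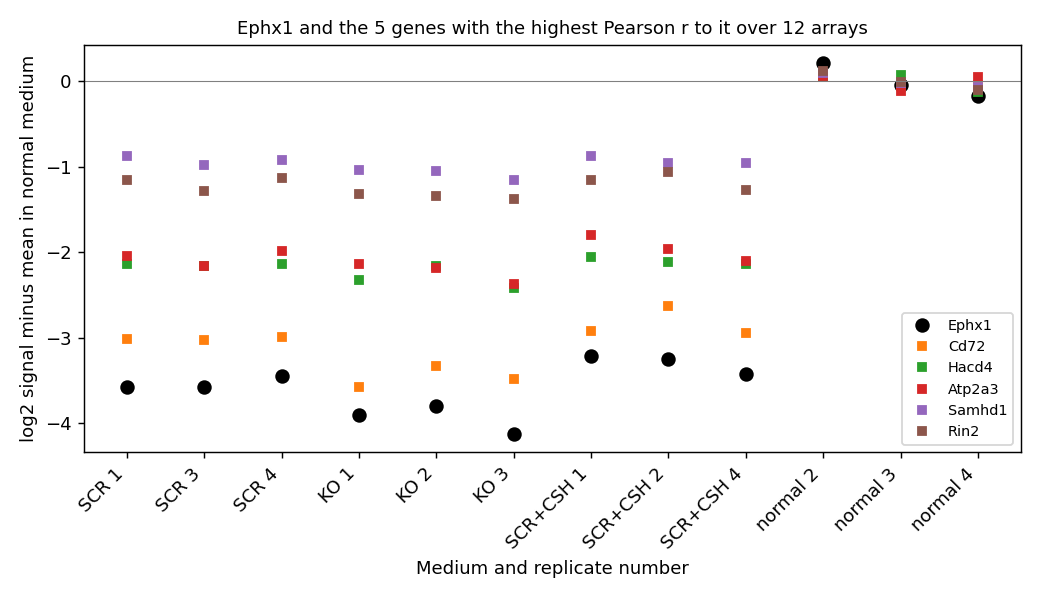
Log2 signal minus the gene's mean in normal medium (vertical axis) on the 12 arrays (horizontal axis, medium and replicate number) for Ephx1 (black circles) and the 5 genes with the highest Pearson r to it (coloured squares). Ephx1 lies from -4.12 to -3.21 in the conditioned media, below Cd72 on each of those arrays.

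Genes beside Ephx1 on chromosome 1 differed less. Tmem63a, a membrane channel gene ending at 180975106, was lower in SCR medium than in normal medium by a log2 difference of -0.57 (adjusted p = 4.68e-05). On the other side Nvl, from 181087138, stood at -0.07 (adjusted p = 0.39). Cnih4, a gene of endoplasmic reticulum export, rose by 0.38 (adjusted p = 0.00161), and Wdr26, of a ubiquitin ligase complex, fell by 0.36 (adjusted p = 0.000371). Lefty1 and Lefty2, the next genes below Tmem63a, were under the array medians. The nearest neighbours thus moved both ways and by under 0.6 in size, whereas Ephx1 stood at -3.53.

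Other enzymes that open epoxides changed less. Dhcr7, which with Ebp forms the cholesterol epoxide hydrolase, read 7.57, 7.46 and 7.58 in SCR medium against 8.22, 8.06 and 8.13 in normal medium, a fall with a log2 difference of -0.60 (SE 0.08, adjusted p = 4.93e-05). Lta4h, leukotriene A4 hydrolase, which opens the epoxide of leukotriene A4 to make leukotriene B4, read 9.70, 9.65 and 9.58 in SCR medium against 9.99, 9.82 and 9.95 in normal medium. Its difference was -0.28 (SE 0.08, adjusted p = 0.0119), and the call was lost without SCR replicate 4 or normal replicate 2 (adjusted p = 0.0524 and 0.0526). Ebp stood at -0.11 (adjusted p = 0.228). In these genes 2 of 3 were called lower, where 15.8% of all tested genes were.

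Enzymes that make epoxides were mostly dim. Of 22 named epoxygenase genes of the Cyp2c and Cyp2j groups, which turn arachidonic acid into its epoxides, 19 were below the median on all arrays and 1 was tested. That gene, Cyp2c55, stood at -0.16 in SCR medium against normal medium (adjusted p = 0.111) and at -0.16 with CSH (adjusted p = 0.117). It was called lower in KO medium, at -0.25 (adjusted p = 0.0158), as were 17.6% of all tested genes. Its means there, 5.88 in KO medium and 6.13 in normal medium, were not far above the array medians of 5.40 to 5.52. Of 19 named P450 genes of foreign compound metabolism and their redox partners, 15 were below the median throughout. In SCR medium 1 of the 4 tested fell, Cyp2u1, a P450 of fatty acid hydroxylation (-0.31, adjusted p = 0.00111) and 0 rose, with a median of -0.06 against 0.02 over all tested genes, of which 15.8% were called lower and 19.3% higher. With CSH against normal medium 1 fell and 1 rose, Cyb5b, an outer mitochondrial cytochrome b5 gene (0.39, adjusted p = 0.00178). Of all tested genes, 35.8% were called in either direction there. In KO medium 2 fell and 0 rose, where 17.6% of all tested genes were called lower and 39.1% in either direction.

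Glutathione transferases are the other main route by which cells dispose of epoxides. The list for this family was counted as a whole, not by which members act on epoxides, and it went in both directions. Among 17 tested genes of this list in SCR medium against normal medium, 7 fell and 2 rose, while 8 missed the threshold. Those that rose were Gsto1 and Ptges, a prostaglandin E synthase gene counted in the list (0.65, adjusted p = 0.000752). Every other called gene of the list fell. The median log2 difference was -0.15, against 0.02 over all tested genes, of which 15.8% were called lower and 19.3% higher. Mgst2 and Mgst3, microsomal transferases of the endoplasmic reticulum, fell most. Mgst2 read 10.05, 10.22 and 10.30 in SCR medium against 12.08, 12.09 and 12.18 in normal medium, a difference of -1.93 (SE 0.12, adjusted p = 2.31e-07). Mgst3 read 8.64, 8.32 and 8.35 in SCR medium against 10.43, 10.31 and 10.18 in normal medium, a difference of -1.87 (SE 0.11, adjusted p = 1.07e-07). The groups were apart for both genes, as they were for Ephx1 and, in this downward direction, for 19.7% of all tested genes.

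The cytosolic transferase gene Gstp1 fell by 0.43 (adjusted p = 4.29e-05); it has near-identical copies, so its reading may include theirs. Gsto1, an omega-class transferase, went the other way, at 10.42, 10.09 and 10.25 in SCR medium against 8.48, 8.70 and 8.44 in normal medium, a rise of 1.71 (SE 0.13, adjusted p = 8.58e-07). In KO medium and with CSH the list had 8 lower and 2 higher in each, where 39.1% and 35.8% of all tested genes were called in either direction. Between KO and SCR medium, and with CSH against SCR medium, limma called 0 of the 17 (1 had an unadjusted p below 0.05 in each), and 0.27% and 0.0% of all tested genes. Against normal medium, Mgst2 differed by -2.05 in KO medium and by -1.58 with CSH, and Mgst3 by -2.04 and -1.74.

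**Figure D4:**
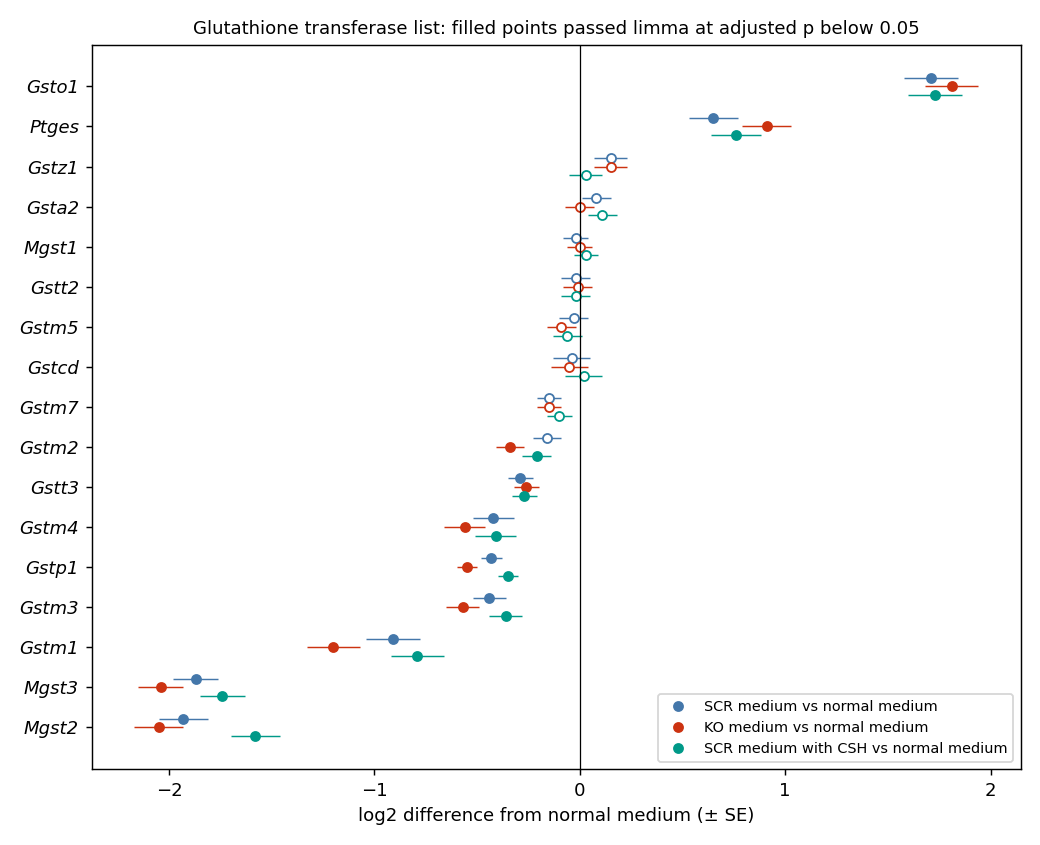
Log2 difference from normal medium (horizontal axis, with SE) for the 17 tested genes of the glutathione transferase list, Ptges among them. The media are SCR medium, KO medium and SCR medium with CSH, and filled points passed limma at an adjusted p below 0.05. Mgst2 and Mgst3 lie between -2.05 and -1.58, while Gsto1 lies between 1.71 and 1.81.

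Later steps of detoxification changed in part, on arrays where 19.3% of all tested genes were called higher and 15.8% lower in SCR medium, with a median of 0.02. Of 4 tested genes of glucuronide and sulfate conjugation, 2 rose in SCR medium, Ugdh (0.41, adjusted p = 0.000159) and Ugp2 (0.28, adjusted p = 0.00957), which make the sugar donor, and 1 fell, Papss1 (-0.32, adjusted p = 0.00592), which makes the sulfate donor; their median was 0.16. Of 17 carbonyl-metabolising genes, 4 rose and 5 fell, with a median of -0.02. The carbonyl reductase gene Cbr2 fell by 1.01 (adjusted p = 8.94e-08) and the aldehyde dehydrogenase genes Aldh9a1 by 0.62 (adjusted p = 6.05e-05) and Aldh3b1 by 0.45 (adjusted p = 0.000721), while Aldh3a2, a fatty aldehyde dehydrogenase, rose by 0.57 (adjusted p = 3.03e-05). Of the 17 tested Abhd genes, relatives in fold, 5 rose and 1 fell, with a median of 0.09; this is 35.3% called in either direction, against 35.2% of all tested genes. In KO medium 5 rose and 1 fell against normal medium, 35.3% against 39.1% of all tested genes. With CSH 9 rose and 1 fell, 58.8% against 35.8% of all tested genes. Abhd5, the activator of adipose triglyceride lipase, rose by 0.82 (adjusted p = 2.08e-06), Abhd17b, a depalmitoylase gene, by 0.27 (adjusted p = 0.00242) and Abhd2 by 0.33 (adjusted p = 0.0135, lost without SCR replicate 1 or 4 or normal replicate 2, up to 0.0612). Abhd12, a lysophosphatidylserine lipase gene, fell by 0.43 (adjusted p = 0.000409).

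Genes listed here as driven by NRF2, the factor that induces detoxifying enzymes under oxidative and electrophilic stress, mostly moved opposite to Ephx1. The glutathione transferase list, of which 7 fell and 2 rose in SCR medium, was counted apart, so this direction holds for the NRF2 list only. Of 16 tested genes of the NRF2 list, 10 rose and 1 fell in SCR medium, with a median of 0.35. Over all tested genes, 19.3% were called higher and 15.8% lower, and their median was 0.02. Sqstm1, an autophagy receptor gene, averaged 14.92 in SCR medium against 13.24 in normal medium, a rise of 1.68 (adjusted p = 8.72e-08). The cystine transporter gene Slc7a11 rose by 1.36 (adjusted p = 4.12e-07), the malic enzyme gene Me1 by 1.27 (adjusted p = 8.31e-06) and the ferritin gene Ftl1 by 0.50 (adjusted p = 1.45e-05). In KO medium 9 rose and 1 fell against normal medium, and with CSH 9 rose and 2 fell, which makes 62.5% and 68.8% called in either direction, against 39.1% and 35.8% of all tested genes.

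Among 10 tested genes of receptors and factors known to control detoxifying enzymes, 5 fell and 2 rose in SCR medium, with a median of -0.13, against 15.8% called lower and 19.3% higher over all tested genes, with a median of 0.02. Nfe2l2, which encodes NRF2, fell by 0.46 (adjusted p = 0.000537), Keap1, its inhibitor, by 0.28 (adjusted p = 0.00112), and Rxrb, a retinoid X receptor gene, by 0.38 (adjusted p = 0.000533). Cebpa, which encodes C/EBP alpha, read 10.32, 10.18 and 10.15 in SCR medium, 9.95, 9.99 and 9.92 in KO medium, 10.38, 10.74 and 10.32 in SCR medium with CSH, and 10.95, 10.72 and 10.68 in normal medium. It was lower in SCR medium than in normal medium by a log2 difference of -0.57 (SE 0.10, adjusted p = 0.000929). The arrays did not overlap, as for 19.7% of all tested genes in this direction. The lowest arrays of Cebpa were those of KO medium, and 4.37% of tested genes had all KO arrays below all SCR arrays. Cebpa was not called between KO and SCR medium, at -0.26 (limma adjusted p = 0.731).

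Between KO medium and SCR medium with CSH, where Ephx1 was called, 4 of the 89 tested genes of these 9 lists were called too, 4.49%, against 1.9% of all tested genes. Cebpa fell by 0.53 (adjusted p = 0.0245) and Cyb5b by 0.36 (adjusted p = 0.0415), while Ugdh rose by 0.28 (adjusted p = 0.0342) and Slc7a11 by 0.41 (adjusted p = 0.0482). Each of these 4 calls depended on single arrays, among them KO replicate 1 or 2 and CSH replicate 2 for every one, and without single arrays the adjusted p reached 0.0808, 0.148, 0.141 and 0.186 for Cebpa, Cyb5b, Ugdh and Slc7a11. The call of Ephx1 held without any single array, at adjusted p from 0.00537 to 0.0483. These fits share the limit that the family was chosen with earlier results of these data known.

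The cells carried macrophage markers. Of 10 such genes 9 exceeded the median on all arrays, Mertk being the exception, and of 9 tested in SCR medium against normal medium 4 fell and 2 rose, where 15.8% of all tested genes were called lower and 19.3% higher. Csf1r, the receptor for M-CSF, stood at -1.79 (adjusted p = 2.71e-06) and Adgre1, a surface receptor gene typical of mouse macrophages, at -1.45 (adjusted p = 1.35e-07), in the direction of Ephx1, while Itgam, which encodes CD11b, stood at 0.97 (adjusted p = 1.36e-05). The summed log2 signal of the 10 markers ran from 121.5 to 122.9 in SCR medium, 122.1 to 123.2 in KO medium, 121.3 to 123.9 with CSH and 124.2 to 124.9 in normal medium. Of 10 epithelial markers, 8 were below the median on all arrays, and their sum ran from 49.2 to 50.1 in SCR medium, 49.5 to 49.7 in KO medium, 49.6 to 49.7 with CSH and 49.3 to 49.6 in normal medium. Named fibroblast (3 of 3) and hepatocyte markers (4 of 4) were below the median throughout, as were 3 of 5 lymphocyte markers. The part of the macrophage marker shift in the Ephx1 values was not tested.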

How the data were processed

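The deposited values are log2 signals that the authors made by RMA in Affymetrix Expression Console on build mm10, per the submitters' processing notes; software versions, probe filters and batch steps are not stated in the sources at hand. The table held 65528 probe sets on 12 arrays, with array medians from 5.40 to 5.52. RMA puts arrays on a common scale, which hides changes of total RNA, and compresses dim signals; the number of arrays limits the precision. Probe sets were named with the platform annotation, and symbols were brought up to date with RefSeq genes of GRCm38.p6: 31018 had 1 symbol, 1478 several and 33032 no listed gene here. The probe set with the highest mean stood for each of 30464 genes, and the 18119 genes above the array median on at least 3 arrays were tested.

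For each comparison limma 3.58.1 (R 4.3.3) was used, with lmFit on group alone over the 12 arrays and eBayes with trend, which left 8 residual degrees of freedom. The threshold was a Benjamini-Hochberg adjusted p below 0.05 over all tested genes. The procedure was tested on simulated data. Members and gene lists were chosen with earlier results of these data known. Genes named are the members, the 5 highest and 5 lowest Pearson r to a tested member (predicted genes and clones skipped), the 3 nearest genes on each side of a member (given for Ephx1), all other epoxide-opening genes, and up to 4 genes of each list with the smallest p, here those that passed and Cyp2c55. The macrophage markers Csf1r, Adgre1, Itgam and Mertk were picked after their values were seen. Ptges was named because it was counted in the glutathione transferase list. Alternatives were other filters, quantile normalization, median centring, no trend, array weights, other handling of probe sets, a replicate block, the 6 arrays of a comparison alone and each array left out. Plots were made in matplotlib 3.10.9 (Python 3.11.15).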

Additional observations from a re-analysis of the deposited data

How the results depend on the processing

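The difference of Ephx1 between KO medium and SCR medium with CSH kept its direction and its call under every alternative run, and with single arrays left out it ran from -0.72 to -0.56. Between KO and SCR medium Ephx1 ran from -0.47 to -0.31 without single arrays and was called only with array weights, at -0.44 (adjusted p = 0.019), a fit in which SCR replicate 4 took a weight of 6.14 and which stopped before its tolerance was reached; the cause was not tested. With CSH against SCR medium it ran from 0.20 to 0.31 and was never called. Against normal medium, without single arrays, it ran from -3.62 to -3.43 in SCR medium, -4.02 to -3.83 in KO medium and -3.37 to -3.18 with CSH. With all genes tested, Ephx2, Ephx3 and Ephx4 had adjusted p of at least 0.66 in every comparison.

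Of the genes in the 9 lists, the Abhd genes among them, limma called 4 between KO medium and SCR medium with CSH. The count was 1 with no filter, with the replicate block or from the 6 arrays alone. It was 7 with quantile normalization or array weights, 0 with median centring, and 0 to 5 with single arrays left out. Array weights also gave 2 calls between KO and SCR medium and 1 with CSH against SCR medium, where there were 0. Over all genes, the count between KO and SCR medium was 49, and 22 from the 6 arrays alone, 376 with array weights and 20 to 50 without single arrays. Between KO medium and SCR medium with CSH it was 345, and 210 with no filter, 574 with quantile normalization, 154 with median centring, 654 with array weights, 214 with the replicate block, 162 from the 6 arrays alone and 107 to 373 without single arrays. With CSH against SCR medium the limma count was 0, and 1 under the stricter filter and 79 with array weights.

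Samples with the same replicate number did not deviate together throughout, with r from -0.07 to 0.29 over 12 pairs. Pairs with other numbers ran from -0.23 to 0.21 over 42 pairs. The highest r, 0.29, joined replicate 1 of SCR medium and of SCR medium with CSH, and 5 of 12 samples correlated best with one of their own number. Whether the numbers mark pairs was thus not settled, and the main fit did not use them. With the replicate block Ephx1 stood at -0.48 between KO and SCR medium (adjusted p = 0.0896), 0.16 with CSH against SCR medium (adjusted p = 0.731) and -0.64 between KO medium and SCR medium with CSH (adjusted p = 0.013).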
